A study of Mus musculus with 6 samples.

Results

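The genes described here are Myc, its partner Max, the Max-binding repressor Mxd4 and 51 genes that make ribosomes or feed growth, 54 in all, taken by gene symbol from a table of 13675 genes. All 54 were in the table and all 54 passed the filter on low values (a mean of at least 10 normalized counts), which 13654 genes passed. The samples were OT-I CD8+ T cells, which carry a transgenic receptor for an ovalbumin peptide, sorted from spleen on day 7 after infection with Listeria monocytogenes that expresses ovalbumin. The KO label marks CD45.2 donor cells with a floxed CK2α gene and dLck-Cre, a Cre transgene driven by the distal Lck promoter, and the WT label marks CD45.2 donor cells with the same floxed gene and no Cre named. Each kind of cell went into its own CD45.1 B6 hosts, and 3 libraries were made per label. By the labels Cre is present under the KO label only, an effect of Cre itself cannot be told apart from loss of CK2α, and neither ages, nor how hosts were prepared, nor the number of animals behind a library was stated. The labels do not tie the 3 samples of a label to different animals, and the p-values cover the scatter of these samples alone, part of which may be technical.

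Myc is a transcription factor that, as a dimer with Max, raises the genes a cell needs to grow, and ribosome manufacture is its best known programme. In an activated CD8+ T cell Myc is induced early and the nucleolus enlarges. RNA polymerase I copies the ribosomal RNA genes there, small nucleolar ribonucleoproteins (snoRNPs) modify the transcript, the small subunit processome cuts out the 18S part, and a chain of assembly factors builds the 40S and 60S subunits. Several nucleolar proteins of this chain, among them nucleolin, nucleophosmin and Nolc1, are textbook CK2 substrates at the protein level, which RNA sequencing does not measure.

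The libraries held 14746864 to 22931296 reads over the listed genes, recovered from the deposited values. Csnk2a1, the targeted gene, measured 2828, 2875 and 2786 normalized counts in KO-labelled libraries 1, 2 and 3, against 1665, 1847 and 1645 in WT-labelled libraries 1, 2 and 3 (log2 fold change 0.72, limma adjusted p = 0.000865). The transcript was thus higher under the KO label, and since the deleted exons are not given here, a count over the whole gene does not check the deletion. Cells were checked by 8 CD8+ T cell markers, of which Cd8a lay between 25233 and 31515 normalized counts in the 6 libraries and none passed the test. Of the 8, 6 had a negative estimate and 2 a positive estimate (median log2 fold change -0.11). For 3 of them (37.5%) every KO-labelled value lay below every WT-labelled value, against 13.8% of all genes. Of 13 B cell markers, none at 0, 2 rose (Cd22 and Ighm, 15.4%), against 2.04% of all genes. The summed level of the 13 was 5953 to 8942 normalized counts in the KO-labelled libraries against 3681 to 4321 in the WT-labelled libraries. Their median lay 2.36 and 2.31 above the WT-labelled mean on the log2 scale in KO-labelled libraries 2 and 3, and -0.13 from it in KO-labelled library 1. The 16 proliferation markers summed to 34567, 30709 and 37401 normalized counts in the KO-labelled libraries, against 22122, 42225 and 20772 in the WT-labelled libraries, so WT-labelled library 2 stood apart from the other 2 of its label. Of the remaining markers 1 of 12 myeloid genes rose and 1 fell, 1 of 4 plasma cell genes rose (Jchain), and none of 7 erythroid and platelet or 3 CD4 and NK cell genes passed. In bulk RNA, fewer cells of a type and less RNA per cell cannot be told apart.

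Most of the 54 genes were slightly higher in the KO-labelled libraries, by a median log2 fold change of 0.16, and 5 passed the test. Of the 54, 4 rose (7.41%), against 2.04% of all 13654 genes tested, and 1 fell (1.85%), against 3.15%. In either direction 5.19% of all genes tested were called at an adjusted p below 0.05. The 4 that rose were Gnl3, Mrto4 and Nop2 of 60S assembly and Nolc1 of the nucleolar scaffold, and the 1 that fell was Mxd4. On mm10 (GENCODE M21) Mxd4 (ENSMUSG00000037235) lies at chr5:34173883-34187720 on the minus strand, Gnl3 (ENSMUSG00000042354) at chr14:31012433-31019152 on the minus strand and Mrto4 (ENSMUSG00000028741) at chr4:139347435-139352576 on the minus strand. Nop2 (ENSMUSG00000038279) lies at chr6:125131909-125144753 and Nolc1 (ENSMUSG00000015176) at chr19:46075863-46085530, both on the plus strand. The median over all genes tested was 0.0061, and the quartiles were 0.081 and 0.26 for the 54 against -0.14 and 0.17 for all genes. The estimate was above 0 for 49 of the 54 (90.7%), against 51.3% of all genes. All 3 KO-labelled values lay above all 3 WT-labelled values for 23 of the 54 (42.6%), against 12.0% of all genes, and below them for 2 (3.70%), against 13.8%. At an unadjusted p below 0.05, 21 of the 54 were higher (38.9%), against 10.2% of all genes. The 54 genes were chosen with earlier results of these data known, so these shares are a description and not a test.

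**Figure D1:**
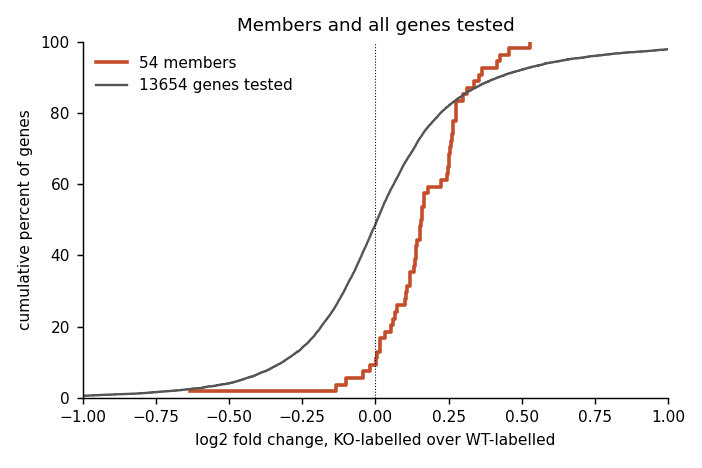
Cumulative percent of genes (y) by log2 fold change, KO-labelled over WT-labelled (x), for the 54 genes of the list and for all 13654 genes tested. The curve of the 54 lies to the right, crossing its midpoint at 0.16 against 0.0061 for all genes.

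The libraries did not split evenly by label. Against the WT-labelled mean, the median of the 54 genes was 0.22, 0.12 and 0.15 higher on the log2 scale in KO-labelled libraries 1, 2 and 3, against -0.060, 0.088 and -0.016 in WT-labelled libraries 1, 2 and 3. KO-labelled library 1 was the highest of the 6 for 27 genes, and WT-labelled library 1 the lowest for 30. WT-labelled library 2 was the highest of its label for 41 of the 54 and reached at least the lowest KO-labelled value for 29, whereas WT-labelled libraries 1 and 3 both lay below every KO-labelled value for 40. The proliferation markers, none of which passed, had a positive estimate for 16 of 16 and were highest in WT-labelled library 2, with medians of 0.54, 0.26 and 0.57 in the KO-labelled libraries against -0.31, 0.75 and -0.42 in the WT-labelled libraries. Their part in the values of the 54 genes was not tested. Without WT-labelled library 2, 18 of the 54 were called higher, against 7.68% of all genes. With array weights, which count a library less the more it scatters around the fit of its label, 20 were, against 9.63%. With any other single library left out 0 or 1 was called higher. Mxd4 was called lower in each of these runs. The B cell markers had medians of -0.13, 2.36 and 2.31 in KO-labelled libraries 1, 2 and 3, where the 54 genes had 0.22, 0.12 and 0.15, and their part in the values of the 54 was not tested either.

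**Figure D2:**
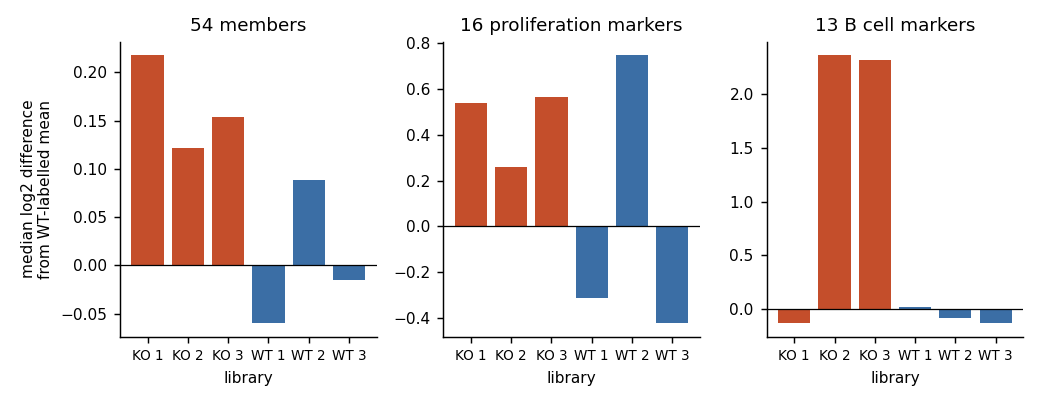
Median log2 difference from the WT-labelled mean (y, a separate scale in each panel) in each library (x) for the 54 genes, 16 proliferation markers and 13 B cell markers. WT-labelled library 2 stands above its label in the first 2 panels, and KO-labelled libraries 2 and 3 stand apart in the third.

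Promoters were read for the 5 called genes to show what lies before their starts, and searched for CACGTG, the E-box that Myc with Max and Mxd4 with Max both bind. The sequences are from RefSeq on GRCm38.p6, the assembly of the mm10 build that the submitters name, with windows of 250 bases before to 50 bases after each start. CACGTG is its own reverse complement, so 1 search covers both strands. Of 54 genes 46 had an entry, and Bop1, Fbl, Gnl2, Myc, Npm1, Rrp12, Rrs1 and Srm had none. The motif was in a window of 10 of the 46 genes (21.7%), against 11.4% of the 9875 genes of the table with an entry. Counted by promoter, it was in 10 of the 54 promoters of these genes (18.5%), against 7.15% of all 32851 promoters. Among the called genes it was found in Mxd4, 219 bases before the start, and in Nop2, 60 bases before the start, and its letters were not in the windows of Gnl3, Mrto4 and Nolc1. The other 8 were Max, Rrn3 (at 2 positions), Pes1, Tsr1, Utp18, Utp20, Ltv1 and Wdr43, none of which passed the test. A match is a description of the sequence and says nothing of binding in these cells.

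The stretches printed here are the longest part of the 250 bases before each start that no annotated exon covers, written from 5′ to 3′ on the strand of the gene with CACGTG in capitals. They lie at chr5:34187721-34187960 on the minus strand for Mxd4, chr6:125131633-125131882 on the plus strand for Nop2, chr19:46075597-46075846 on the plus strand for Nolc1, chr14:31019294-31019381 on the minus strand for Gnl3 and chr4:139352718-139352826 on the minus strand for Mrto4. Those of Gnl3 and Mrto4 are short because the exons of their divergent neighbours Pbrm1 and Emc1 take up the rest. Emc1, a membrane insertion factor, measured 473, 503 and 544 normalized counts in the KO-labelled libraries, against 485, 489.9 and 494 in the WT-labelled libraries, without a call (log2 fold change 0.046, limma adjusted p = 0.818).
Mxd4: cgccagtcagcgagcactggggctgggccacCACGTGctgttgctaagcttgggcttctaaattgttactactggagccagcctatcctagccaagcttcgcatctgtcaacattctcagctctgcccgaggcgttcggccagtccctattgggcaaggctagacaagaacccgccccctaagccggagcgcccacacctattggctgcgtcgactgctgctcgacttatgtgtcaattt
Nop2: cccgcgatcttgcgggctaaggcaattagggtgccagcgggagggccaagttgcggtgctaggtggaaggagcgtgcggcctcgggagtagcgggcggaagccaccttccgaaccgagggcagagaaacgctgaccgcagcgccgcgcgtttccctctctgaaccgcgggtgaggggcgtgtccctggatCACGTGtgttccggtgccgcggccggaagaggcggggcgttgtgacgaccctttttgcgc
Nolc1: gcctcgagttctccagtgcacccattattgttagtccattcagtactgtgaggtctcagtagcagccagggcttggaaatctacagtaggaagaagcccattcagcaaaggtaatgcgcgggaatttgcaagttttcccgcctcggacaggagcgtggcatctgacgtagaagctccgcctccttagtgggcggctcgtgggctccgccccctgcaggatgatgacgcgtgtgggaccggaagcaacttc
Gnl3: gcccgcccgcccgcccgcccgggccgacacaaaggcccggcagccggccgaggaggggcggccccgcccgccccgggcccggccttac
Mrto4: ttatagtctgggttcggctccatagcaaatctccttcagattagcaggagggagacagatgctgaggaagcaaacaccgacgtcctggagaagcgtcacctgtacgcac

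The Myc network gave the largest change of the list. Mxd4, which binds Max in place of Myc and represses the same sites, measured 3094, 3349 and 3143 normalized counts in KO-labelled libraries 1, 2 and 3, against 5079.7, 4744 and 5042 in WT-labelled libraries 1, 2 and 3. The groups were far apart relative to their spread, at 3195 ± 135 in KO-labelled and 4955 ± 184 in WT-labelled libraries (SD, n = 3 each), a 1.55-fold fall (log2 fold change -0.63, SE 0.07, limma adjusted p = 0.00111). The call held in 6 of 6 fits with a library removed, with an adjusted p of at most 0.0140. An exact permutation test of the single gene (two-sided) gave p = 0.1, the lower limit with 3 samples per label.

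Myc itself measured 708, 687 and 785 normalized counts in the KO-labelled libraries, against 561, 647 and 608 in the WT-labelled libraries. Every KO-labelled value was above every WT-labelled value, with means of 727 ± 51.4 in KO-labelled and 605 ± 42.8 in WT-labelled libraries (SD, n = 3 each), but the limma adjusted p was 0.126 (log2 fold change 0.26, 95% interval 0.063 to 0.46). It passed with array weights (adjusted p = 0.0239) and without WT-labelled library 2 (0.0423), and in the other runs without 1 library its adjusted p was between 0.165 and 0.351. Max, the partner that Myc and Mxd4 share, measured 2328, 1964 and 2038 in the KO-labelled libraries, against 2105, 2329 and 2341 in the WT-labelled libraries. These overlap, and Max was not called (log2 fold change -0.10, 95% interval -0.28 to 0.084, limma adjusted p = 0.536).

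Among 17 other genes of the Myc network in the table, 2 fell (11.8%), against 3.15% of all genes, and none rose, against 2.04%. Of the 17, 12 had a negative estimate and 5 a positive estimate (median log2 fold change -0.096, range -0.72 to 0.56). Mxi1, a repressor of the same family as Mxd4, measured 442, 479 and 495 normalized counts in the KO-labelled libraries, against 769, 731 and 834 in the WT-labelled libraries (log2 fold change -0.72, SE 0.09, limma adjusted p = 0.00240), and passed in 6 of 6 runs without 1 library. Mlxip, a glucose-sensing factor that dimerises with the Max relative Mlx, measured 1433, 1791 and 1687 in the KO-labelled libraries, against 2066, 2036 and 2248 in the WT-labelled libraries (-0.38, SE 0.09, limma adjusted p = 0.0423). With 1 library removed it passed only without WT-labelled library 2 (0.0145).

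**Figure D3:**
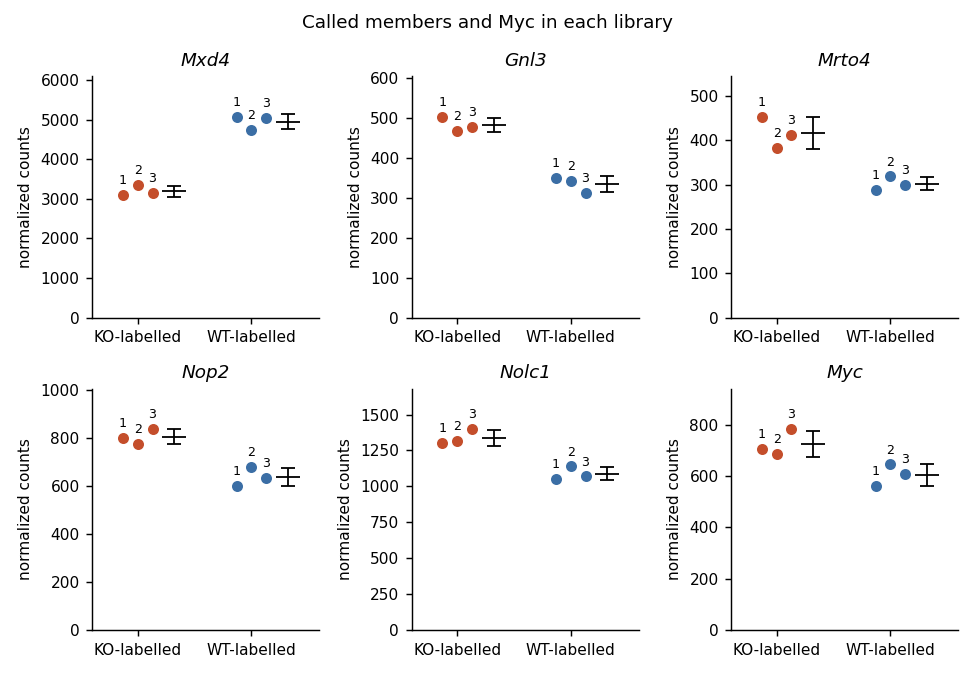
Normalized counts (y, from 0) of the 5 called genes and Myc in each library, numbered by replicate, KO-labelled left and WT-labelled right, with mean and SD (n = 3) beside the points. Mxd4 is lower and the other 5 are higher in every KO-labelled library than in any WT-labelled library.

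RNA polymerase I transcription genes gave no call. None of the 6 passed, and 5 of 6 had a positive estimate (median log2 fold change 0.063). Ubtf, the factor that holds ribosomal DNA in an open state and recruits the polymerase, measured 5931, 5739.8 and 5367 normalized counts in the KO-labelled libraries, against 6379, 5973 and 6366 in the WT-labelled libraries. It was the only one of the 6 with every KO-labelled value below every WT-labelled value, without a call (log2 fold change -0.14, SE 0.07, limma adjusted p = 0.290). Polr1a, the largest catalytic subunit, measured 923, 1035 and 1105 in the KO-labelled libraries, against 881, 957 and 906 in the WT-labelled libraries. Polr1b, the other large catalytic subunit, measured 439, 439 and 419.6 in the KO-labelled libraries, against 409, 361 and 413 in the WT-labelled libraries. Polr1a overlapped between the labels and Polr1b did not, and the estimates were 0.16 and 0.14 on the log2 scale, neither passing (limma adjusted p = 0.337 and 0.453). Polr1c, a subunit shared with polymerase III, Polr1e, a subunit of the initiation-competent enzyme, and Rrn3, the factor that brings the polymerase to its promoter, had estimates of 0.074, 0.052 and 0.015. Of 14 further genes of polymerase I and ribosomal DNA transcription, 1 fell (7.14%, against 3.15% of all genes) and none rose. That gene was Polr2e, a subunit common to the 3 nuclear polymerases (log2 fold change -0.36, limma adjusted p = 0.0344). With 1 library removed Polr2e passed only without WT-labelled library 2 (0.00587).

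The 4 genes of abundant nucleolar proteins were all higher in estimate, and 1 of 4 rose, against 2.04% of all genes. In a group of 4 this share rests on 1 gene and says little of the group. Nolc1, a chaperone that escorts snoRNPs through the nucleolus, measured 1300.1, 1315 and 1399.6 normalized counts in the KO-labelled libraries, against 1053, 1138 and 1069 in the WT-labelled libraries. The labels did not overlap, with means of 1338 ± 53.7 in KO-labelled and 1087 ± 45.4 in WT-labelled libraries (SD, n = 3 each; log2 fold change 0.30, SE 0.07, limma adjusted p = 0.0410). That call held in 1 of 6 runs without 1 library, the one without WT-labelled library 2 (adjusted p = 0.0117), and its adjusted p was 0.0729 to 0.172 in the others. Npm1, which encodes nucleophosmin, a ribosome export and histone chaperone, measured 12565, 9544 and 10290.2 in the KO-labelled libraries, against 8215, 9846 and 8628 in the WT-labelled libraries. Ncl, which encodes nucleolin, measured 14079, 12586 and 13231 in the KO-labelled libraries, against 11184, 13059.9 and 11512 in the WT-labelled libraries. For both, WT-labelled library 2 exceeded KO-labelled library 2 and neither passed (limma adjusted p = 0.180 and 0.304). Npm1 has many processed pseudogenes, so its count depends on how shared reads were assigned, which was not stated. Ddx21, a helicase that links polymerase I transcription to processing, had an estimate of 0.058 (95% interval -0.10 to 0.22).

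In the box C/D snoRNPs, which methylate ribosomal RNA, none of the 4 genes passed and all 4 estimates were positive (median log2 fold change 0.21). Nop58, a core subunit, measured 1492, 1156 and 1317 normalized counts in the KO-labelled libraries, against 999, 1108 and 847 in the WT-labelled libraries. Its labels did not overlap and it came nearest to passing (log2 fold change 0.43, SE 0.12, limma adjusted p = 0.0665). It passed in 1 of 6 runs without 1 library, that without WT-labelled library 2 (0.00853). The call also depended on the method. Nop58 passed with array weights (limma adjusted p = 0.00522) and by DESeq2 on recovered reads (adjusted p = 0.0110), but not by edgeR (adjusted p = 0.0632). Fbl, the methyltransferase fibrillarin, measured 1889, 1757 and 1779.5 in the KO-labelled libraries, against 1335, 1766 and 1504 in the WT-labelled libraries. Nop56, the partner of Nop58, measured 2106, 1769.6 and 1971 in the KO-labelled libraries, against 1743, 1722 and 1735 in the WT-labelled libraries. Fbl overlapped through WT-labelled library 2 alone and Nop56 did not overlap, with adjusted p of 0.183 and 0.250 by limma. Rrp9, a protein of the U3 particle that guides 18S cleavage, had an estimate of 0.14 and non-overlapping labels.

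Genes of the box H/ACA snoRNPs, which make pseudouridine and of which some serve telomerase, were nearest to level among the snoRNP genes. Dkc1, the pseudouridine synthase dyskerin, measured 1294, 1100.3 and 1184 normalized counts in the KO-labelled libraries, against 968, 1214 and 1043 in the WT-labelled libraries. Gar1 measured 546, 541 and 491 in the KO-labelled libraries, against 442, 559 and 428 in the WT-labelled libraries, and Nop10 measured 668, 678 and 696 in the KO-labelled libraries, against 600.0, 739 and 702 in the WT-labelled libraries. All 4 genes of the group overlapped between the labels, and in Gar1, Nhp2 and Nop10 WT-labelled library 2 was the highest of all 6. Their estimates were 0.15 for Dkc1, 0.15 for Gar1, 0.0064 for Nop10 and 0.00047 for Nhp2 on the log2 scale, with a 95% interval of -0.20 to 0.20 for Nhp2. Among 10 genes of snoRNP assembly none passed, with 9 positive estimates and a median of 0.21.

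Genes of the small subunit processome and 40S maturation factors were all higher in estimate and none was called. All 13 had a positive estimate, from 0.016 (Bysl) to 0.35 (Tsr1) with a median of 0.25 on the log2 scale, and for 8 of the 13 (61.5%) every KO-labelled value lay above every WT-labelled value, against 12.0% of all genes. Wdr3, a WD-repeat subunit of the processome, measured 1519, 1393 and 1496 normalized counts in the KO-labelled libraries, against 1170.3, 1279 and 1256 in the WT-labelled libraries. Wdr43, another such subunit, measured 1809.8, 1540.2 and 1691 in the KO-labelled libraries, against 1418, 1429.9 and 1393 in the WT-labelled libraries. Neither gene overlapped between the labels, with adjusted p of 0.0805 and 0.0975 by limma. Utp20, a long scaffold that joins the processome late, measured 759.9, 727 and 745 in the KO-labelled libraries, against 565, 688 and 551 in the WT-labelled libraries (log2 fold change 0.31, SE 0.10, limma adjusted p = 0.10). The other processome genes, Utp15, Utp14a, Utp18, Nop14 and the helicase Ddx10, had estimates between 0.13 and 0.25. Of the genes that act later, in the cytoplasm or on export, Tsr1 had an estimate of 0.35, Ltv1 0.27, Rrp12 0.27, Nob1, the nuclease that makes the final 18S end, 0.12, and Bysl 0.016. Tsr1 shares 1240 exonic bases with Srr on the opposite strand, so reads of these genes cannot be told apart if strand was not used in counting. Among 44 further genes of this branch none passed either, with 37 positive estimates and a median of 0.13.

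**Figure D4:**
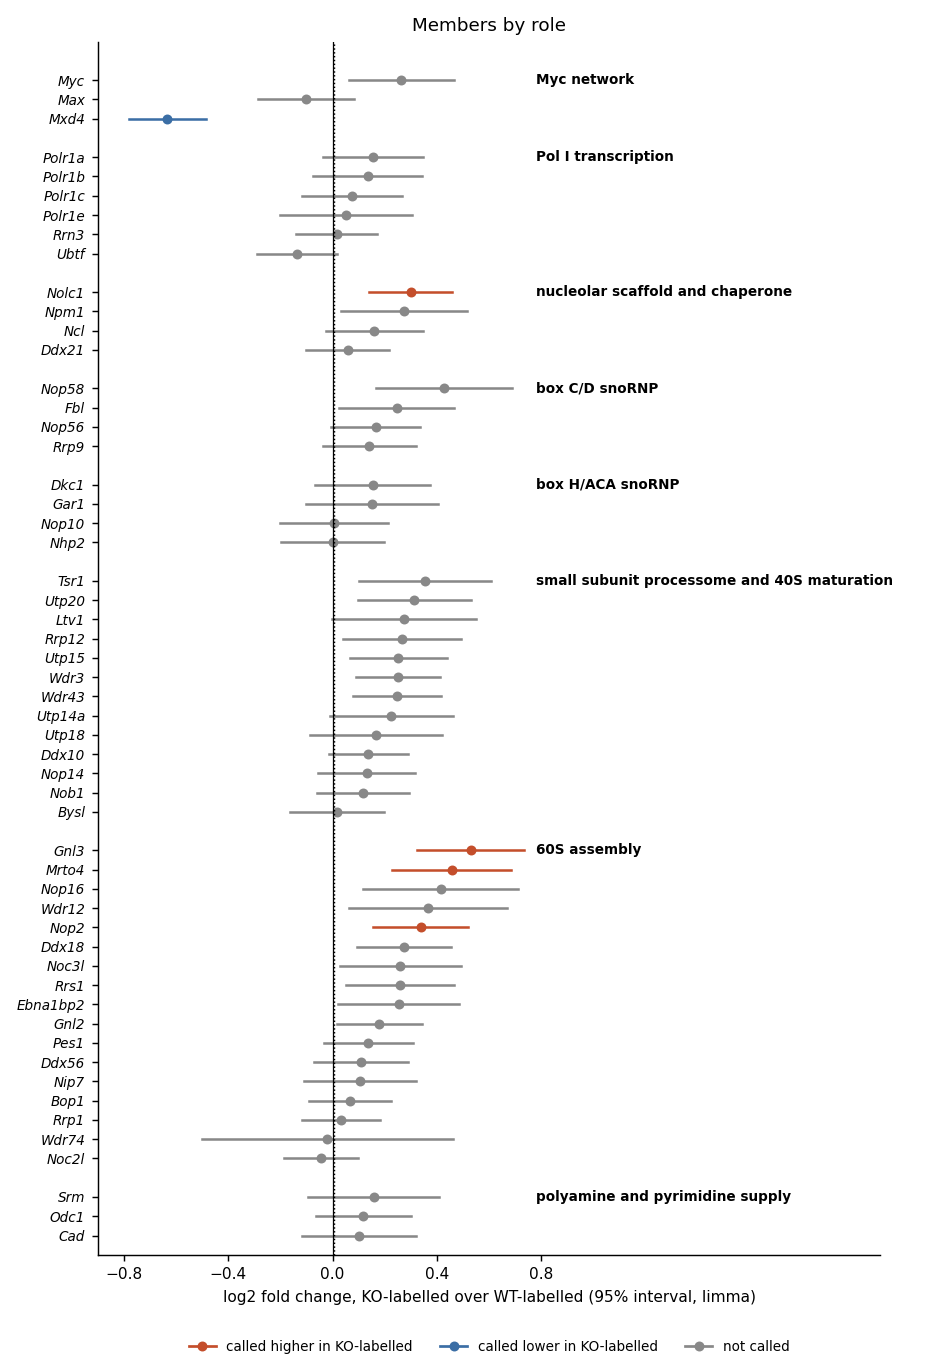
Log2 fold change, KO-labelled over WT-labelled, with its 95% interval (x) for each of the 54 genes (y), grouped by role, with the median of all genes tested as a dotted line. The 60S and small subunit groups lie mostly to the right of 0, the polymerase I and box H/ACA groups lie near it, and Mxd4 alone lies far to the left.

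The 60S assembly group, the largest with 17 genes, held 3 of the 4 rises (17.6% of its genes, against 2.04% of all genes). Gnl3, which encodes nucleostemin, a nucleolar GTPase, measured 503, 468 and 477 normalized counts in the KO-labelled libraries, against 349.6, 342 and 312 in the WT-labelled libraries. The lowest KO-labelled value was well above the highest WT-labelled value, with means of 483 ± 18.4 in KO-labelled and 334 ± 20.0 in WT-labelled libraries (SD, n = 3 each), a 1.44-fold rise (log2 fold change 0.53, SE 0.09, limma adjusted p = 0.0117). It passed in 4 of 6 runs without 1 library and missed without KO-labelled library 3 (adjusted p = 0.0616) or WT-labelled library 3 (0.0663). Without a variance trend none of the 4 rises passed, with adjusted p of 0.0556 for Gnl3, 0.0856 for Mrto4, 0.113 for Nop2 and 0.121 for Nolc1. Gnl3 and its divergent neighbour Pbrm1, a chromatin remodelling subunit, share 15 exonic bases on opposite strands. Pbrm1 measured 3666, 3494 and 3717 in the KO-labelled libraries, against 3359, 3761 and 3529.7 in the WT-labelled libraries, without a call (log2 fold change 0.031, limma adjusted p = 0.846).

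Mrto4, a homologue of the ribosomal stalk protein that holds its place during nuclear assembly, measured 453, 382 and 412 normalized counts in the KO-labelled libraries, against 288, 318 and 300.0 in the WT-labelled libraries. Means were 416 ± 35.8 in KO-labelled and 302 ± 15.2 in WT-labelled libraries (SD, n = 3 each), a 1.37-fold rise (log2 fold change 0.46, SE 0.10, limma adjusted p = 0.0316). Nop2, a methyltransferase of large subunit ribosomal RNA, measured 803, 775 and 838 in the KO-labelled libraries, against 602, 678 and 633 in the WT-labelled libraries. Its means were 805 ± 31.6 in KO-labelled and 638 ± 38.4 in WT-labelled libraries (SD, n = 3 each), a 1.26-fold rise (log2 fold change 0.34, SE 0.08, limma adjusted p = 0.0422). Neither gene overlapped between the labels. Without WT-labelled library 2 the adjusted p was 0.0105 for Mrto4 and 0.0102 for Nop2, and with any other library left out neither passed (0.0543 to 0.127 for Mrto4 and 0.0857 to 0.171 for Nop2).

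The other 14 genes of 60S assembly did not pass, and 12 of them had positive estimates. Nop16 (log2 fold change 0.41), Wdr12 (0.37), Ddx18 (0.27), Noc3l (0.26), Rrs1 (0.26) and Ebna1bp2 (0.25) were the highest of these, with limma adjusted p between 0.0862 and 0.196. Wdr12 forms a trimer with Pes1 and Bop1, and the estimates of these partners were smaller, at 0.14 and 0.067. Gnl2, a GTPase related to Gnl3, had an estimate of 0.18 with labels that did not overlap. Ddx56, Nip7 and Rrp1 lay between 0.032 and 0.11. Wdr74 and Noc2l were the 2 with negative estimates, -0.020 and -0.044, and Wdr74, at 36.8 to 49.6 normalized counts, had the lowest counts of the 54 (95% interval -0.50 to 0.46). Among 46 further 60S genes, 2 rose (4.35%), against 2.04% of all genes, and none fell, against 3.15%. Of the 46, 36 had positive estimates, with a median of 0.086. Rpf2, which with Rrs1 docks the 5S particle, measured 395, 309 and 367 in the KO-labelled libraries, against 236, 275 and 217 in the WT-labelled libraries (log2 fold change 0.55, SE 0.13, limma adjusted p = 0.0388). Rrp15 measured 294, 267 and 261 in the KO-labelled libraries, against 189, 217 and 183 in the WT-labelled libraries (0.48, SE 0.12, limma adjusted p = 0.0452). With 1 library removed, Rpf2 passed only without KO-labelled library 2 (0.0486) or WT-labelled library 2 (0.00560), and Rrp15 only without WT-labelled library 2 (0.00962).

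**Figure D5:**
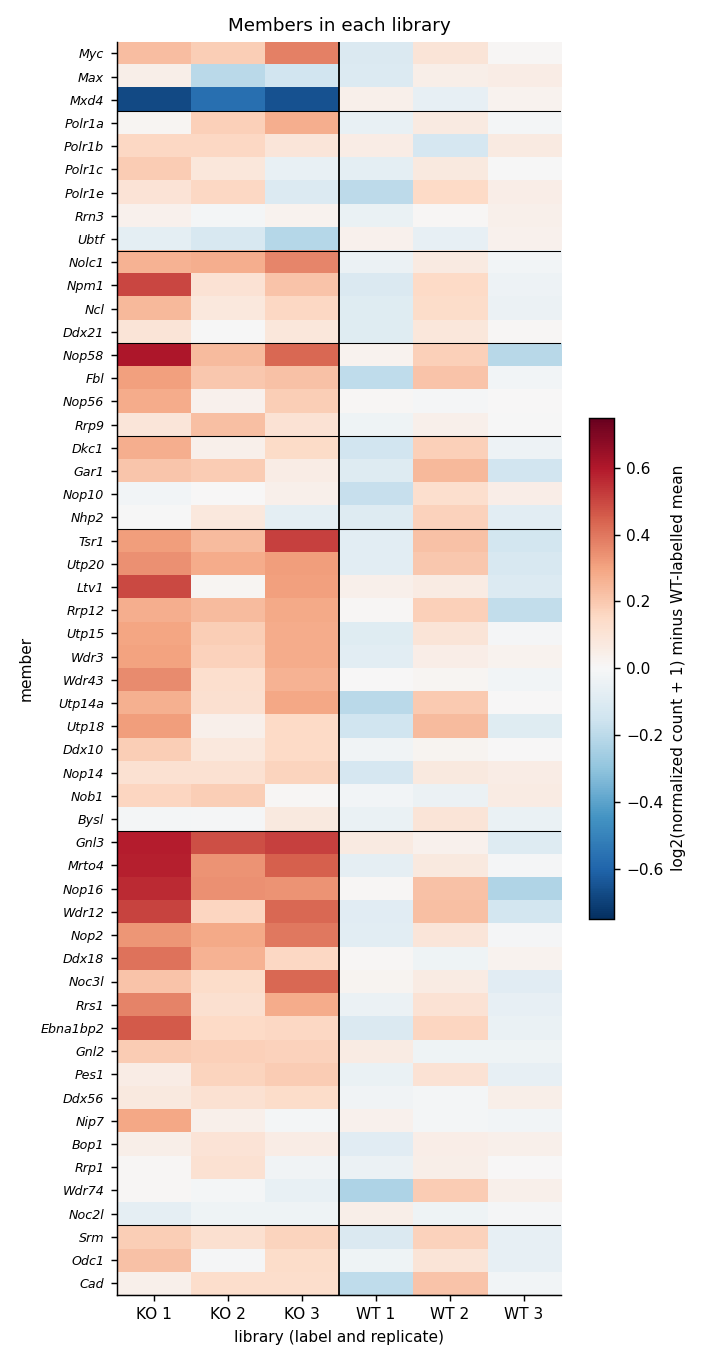
Difference of log2(normalized count + 1) from the WT-labelled mean (colour) for each of the 54 genes (rows, by role) in each library (columns, KO-labelled left). Mxd4 is low in all 3 KO-labelled columns, most ribosome assembly genes are high there, most of all in KO-labelled library 1, and WT-labelled library 2 is warmer than the other WT-labelled columns.

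The genes of polyamine and pyrimidine supply, classical Myc targets, showed no separation of the labels. Odc1, ornithine decarboxylase, the entry step to polyamines, measured 1525, 1302 and 1442 normalized counts in the KO-labelled libraries, against 1279, 1398 and 1255 in the WT-labelled libraries. Srm, spermidine synthase, measured 279.9, 267 and 276 in the KO-labelled libraries, against 228, 277 and 235 in the WT-labelled libraries. Cad, which carries the first 3 steps of pyrimidine synthesis, measured 1497, 1597 and 1596 in the KO-labelled libraries, against 1276, 1688 and 1437 in the WT-labelled libraries. In each of them WT-labelled library 2 lay within or above the KO-labelled values. The estimates were 0.12 for Odc1, 0.16 for Srm and 0.10 for Cad on the log2 scale, with upper 95% bounds of 0.30, 0.41 and 0.32. Of 11 other polyamine genes none passed. Of 17 other nucleotide synthesis genes 1 fell (5.88%, against 3.15% of all genes) and none rose. That gene, Ctps2, a CTP synthase, measured 1245, 1202 and 1148 in the KO-labelled libraries, against 1573, 1482 and 1507 in the WT-labelled libraries (log2 fold change -0.34, limma adjusted p = 0.0205). Its call was kept without KO-labelled library 1 (0.0366) or WT-labelled library 2 (0.00765) and lost without any other. Of 13 genes of the RNA exosome, which trims ribosomal RNA precursors, 1 rose (7.69%, against 2.04% of all genes), and 12 had positive estimates. The riser was Mphosph6 (0.56, limma adjusted p = 0.0486, and with 1 library removed only without WT-labelled library 2, 0.0104).

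Taking the ribosome assembly genes outside the list as a whole, those of the small subunit, 60S, snoRNP assembly and exosome lists, 94 of 113 had a positive estimate, with a median log2 fold change of 0.12, against 0.16 for the 54 genes and 0.0061 for all genes tested. Of the 113, 3 rose (2.65%), against 2.04% of all genes, and none fell, against 3.15%. All 3 KO-labelled values lay above all WT-labelled values for 36 of them (31.9%), against 12.0% of all genes, and below for 2 (1.77%), against 13.8%. Their library medians were 0.17, 0.099 and 0.11 in the KO-labelled libraries, against -0.039, 0.075 and -0.016 in the WT-labelled libraries, with WT-labelled library 2 again the highest of its label. The 113 leave out the other Myc network, polymerase I, polyamine and nucleotide lists. With these added, 130 of 172 genes had a positive estimate (median 0.10), 3 rose (1.74%) and 4 fell (2.33%). These lists, too, were chosen with earlier results of these data known, so the shares are a description and not a test.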

How the data were processed

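RNA sequencing of 6 samples was deposited by the authors as 1 table of normalized counts, a signal on a linear scale. In each column every value was a whole multiple of 1 step (100% whole once divided by it, tolerance 0.01, and 1.43% to 1.76% whole as deposited), so reads were recovered. The submitters' processing notes name mm10. The aligner, the counter, the annotation and whether strand was used: not given in the sources used here. No column was left unused. Ensembl IDs were matched to symbols through GENCODE M21 (13648 of 13675).

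Limma 3.58.1 in R 4.3.3 (variance trend, two-sided) compared the labels on log2(normalized count + 1) over 13654 genes with a mean of at least 10, with p adjusted by Benjamini-Hochberg and a threshold of 0.05. On this scale the fold changes of low genes are understated. Alternatives were pseudocounts of 0.5 and 5, no filter or a mean of 50, TMM, quantile normalization, no trend, array weights, a replicate block, edgeR 4.0.16 and DESeq2 1.42.0 on recovered reads, each library left out, and, added after the data were seen, KO-labelled libraries 2 and 3 left out. The fit was tested on simulated counts, drawn independently for each gene and library. They held no library that departs from its label, so they cannot show how the calls behave with WT-labelled library 2. Every pair of libraries differed by more than sampling noise (lowest chi-square over its degrees of freedom, 5.36). By this measure, which also grows with depth, WT-labelled library 2 lay nearer to the KO-labelled libraries than to its own label. Its values were 16.2, 13.3 and 14.8 against KO-labelled libraries 1, 2 and 3, and 19.4 and 18.9 against WT-labelled libraries 1 and 3. All 54 genes may be named, with values per library for the called genes, the Myc network, the supply genes and the 3 smallest p of each role, and of other lists at most 4 called genes. Pbrm1 and Emc1 were named after their values were seen. The genes and lists were chosen with earlier results of these data known. Of the other 15 lists, 15 entries had no row in the table.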

Additional observations from a re-analysis of the deposited data

How the results depend on the processing

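The count of genes called higher (4 of the 54) was 0 without a variance trend, 20 with array weights, 0 without KO-labelled libraries 2 and 3, and 0 to 18 with 1 library left out, 18 being without WT-labelled library 2. The count called lower was 1, and 0 without KO-labelled libraries 2 and 3, a run with 1 KO-labelled library in which limma called 0 of all genes (1861 at an unadjusted p below 0.05) and the Mxd4 log2 fold change was -0.68 (adjusted p = 0.107). Over all genes the count of 708 became 141 without a trend, 2676 with array weights and 200 to 2028 with 1 library left out. The count over the other pathway genes, 7, became 4 after quantile normalization, 1 without a trend, 38 with array weights, 11 by DESeq2, 0 without KO-labelled libraries 2 and 3, and 1 to 37 with 1 library left out. The cause was not tested. The median log2 fold change of the 54 stayed between 0.13 and 0.22. Myc passed with array weights (log2 fold change 0.30, limma adjusted p = 0.0239) and without WT-labelled library 2 (0.31, limma adjusted p = 0.0423). Its log2 fold change ranged from 0.21 to 0.31 with 1 library left out. A sign turned for 8 genes near 0. Max was 0.045, Nhp2 -0.0033, Nop10 -0.0205, Bysl -0.0133 and Wdr74 0.0089 without KO-labelled libraries 2 and 3, Nop10 was -0.0022 after quantile normalization and Nhp2 -0.0039 by DESeq2. With 1 library left out the ranges were -0.048 to 0.13 for Polr1e, -0.0088 to 0.035 for Rrn3, -0.047 to 0.086 for Nhp2, -0.081 to 0.069 for Nop10, -0.013 to 0.065 for Bysl, -0.0094 to 0.060 for Rrp1 and -0.13 to 0.076 for Wdr74.

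Same-numbered libraries did not deviate together (correlation of deviations across genes -0.54, -0.27 and -0.23), and no library correlated best with its own number. Deviations of 3 libraries from their own label mean are not independent, so these correlations cannot settle whether samples shared a batch. With a replicate block 0 of the 54 were called higher and 1 lower, 197 genes were called in all and 1 of the other pathway genes. The block leaves the fold changes of this balanced design as they are (Myc 0.26), and the adjusted p became 0.263 for Myc, 0.0650 for Gnl3, 0.132 for Mrto4, 0.152 for Nop2, 0.152 for Nolc1 and 0.0216 for Mxd4.

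Depth was 14746864 to 22931296 reads over listed genes, and 3 libraries per label limit precision. With the intervals seen here, changes of the size of most of the 54 genes (a log2 fold change near 0.16) could not be called one by one. Of the 54, 13 share exonic bases with a gene on the opposite strand, 5 of them over 100 bases (Tsr1, Noc2l, Utp14a, Bysl and Polr1a).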
